A study of Homo sapiens with 6 samples.

Results

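The transporters that carry glucose, related sugars, lactate and pyruvate were followed in SNU216 cells, an established gastric cancer cell line. They are the 6 members SLC2A1, SLC2A3, SLC2A6, SLC2A8, SLC2A10 and SLC2A13 of the GLUT family of sugar transporters and the 2 monocarboxylate transporters SLC16A1 and SLC16A3. Their rows were taken by gene symbol from the deposited tables, and all 8 were found among 17318 genes. The genes were chosen by their biology with the siOXTR minus siControl differences in FPKM of these libraries already known. Those differences are therefore given as a description of the genes, with no p-value. Where a gene is said to be called, the call comes from the fit over all genes and is part of that description, not evidence about the chosen genes. The study set 3 libraries of SNU216 cells given siRNA that targets OXTR, the gene of the oxytocin receptor (siOXTR), against 3 libraries of cells given a control siRNA (siControl), each for 48 h. All cells were grown in RPMI1640 medium with fetal bovine serum, so both groups share medium, transfection and time. The siRNA sequences were not used here. The libraries of a group are numbered 1 to 3, but no label says whether each had its own culture, and the p-values therefore cover library-to-library spread that may be technical.

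Glucose enters most cells down its gradient through GLUT proteins, each a bundle of membrane-spanning helices, and is trapped inside by phosphorylation. Cells that run glycolysis fast, as many carcinoma cells do, turn pyruvate into lactate and release it together with protons through monocarboxylate transporters (MCTs). MCT1 (SLC16A1) and MCT4 (SLC16A3) reach the cell surface in a complex with the glycoprotein basigin, the product of BSG. GLUT1 (SLC2A1) and MCT4 are well known to be induced by hypoxia through HIF1A, the oxygen-regulated transcription factor subunit.

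Levels are in FPKM, which divides the fragments of a gene by transcript length and by the library's total, so levels can be compared between genes. The sequencing depth behind them is unknown. OXTR was at 4.92 ± 0.371 FPKM in siOXTR and 39.1 ± 0.257 FPKM in siControl (SD, n = 3 each), which fits the labels. Across 11550 genes, which are not independent replicates, libraries of the same group had a Pearson r between 0.995 and 0.998 on the log2 scale. All 5 epithelial markers checked were present, with summed levels of 7707 to 7867 FPKM in siOXTR and 6570 to 7622 FPKM in siControl. These sums do not show single genes, and KRT8 alone reached 3224 FPKM. CDH1, one of the 5, was called lower in siOXTR (log2 difference -1.88), and the others are not given singly here. Of 6 fibroblast markers in the files LUM alone reached 1 FPKM in any library, with summed levels of the list of 0.61 to 0.83 FPKM in siOXTR and 1.62 to 2.04 FPKM in siControl. Of 4 blood cell markers PTPRC and CD68 reached 1 FPKM, with sums of 8.42 to 9.10 FPKM in siOXTR and 9.05 to 10.4 FPKM in siControl, and no endothelial, adipocyte or muscle marker did. The part of these lists in the differences was not tested. In bulk RNA, fewer cells with a transcript and less of it per cell cannot be told apart.

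Differences were taken from a limma model of log2(FPKM + 1) over the 11550 genes that averaged 1 FPKM or more, and a gene was called where its Benjamini-Hochberg adjusted p was under 0.05. Of the 8 transporter genes 7 passed this filter, and SLC2A10 did not. Of the 7, 6 were called lower in siOXTR, where 17.6% of all tested genes were called lower. None of the 7 was called higher, where 42.2% of all tested genes were called higher and 59.8% were called in either direction. The siOXTR and siControl values did not overlap for 6 of the 7, all lower in siOXTR, against 19.2% of all tested genes lower, 45.2% higher and 64.4% either way. The log2 difference was -1 or lower for 3 of the 7, against 2.34% of all tested genes. Because the genes were picked with this contrast in view, nothing is read from these shares. The median log2 difference of the 7 was -0.64, against 0.13 for all tested genes. Scaling the libraries by TMM, a trimmed mean of gene ratios, moved the median of all genes by -0.115, and the same 6 transporter genes were then called lower, where 24.5% of all tested genes were called lower and 19.1% higher.

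**Figure D1:**
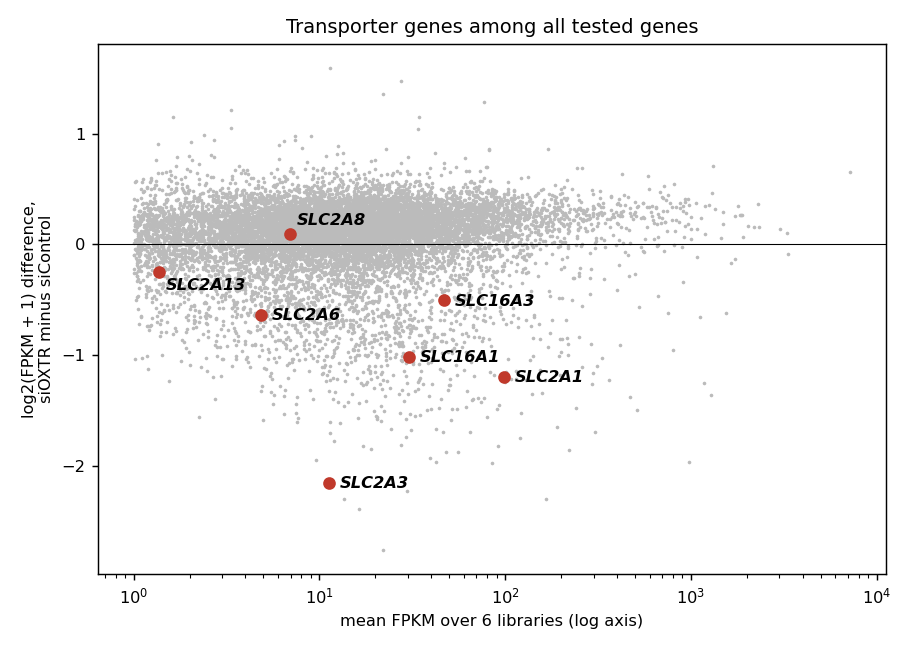
Each grey point is a tested gene, with its mean FPKM over the 6 libraries on a log axis and its log2(FPKM + 1) difference, siOXTR minus siControl, on the vertical axis. The 7 tested transporter genes are in red, from SLC2A3 at -2.16 to SLC2A8 at 0.10.

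GLUT1 is the widespread transporter that gives cells their basal glucose supply. Its gene SLC2A1, on the minus strand of chromosome 1 (42925375 to 42959176, GRCh38), had the highest level of the 8 genes in both groups. It stood at 59.83, 59.29 and 60.22 FPKM in the siOXTR libraries, against 138.02, 139.58 and 136.98 FPKM in the siControl libraries. All siOXTR libraries lay far below all siControl libraries, and the values within a group spread over only 1.56% of the mean in siOXTR and 1.88% in siControl. The level was 2.31-fold lower in siOXTR, a log2 difference of -1.20 (SE 0.047). In siControl SLC2A1 exceeded 97.3% of all listed genes, and in siOXTR 91.9%.

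GLUT3 has a high affinity for glucose and is best known as the glucose transporter of neurons. Its gene SLC2A3, on the minus strand of chromosome 12 (7919230 to 7936275), showed the largest difference of the 8. Its level was 3.32, 3.75 and 3.47 FPKM in siOXTR, against 19.18, 18.58 and 19.60 FPKM in siControl. The groups were far apart, with a 5.44-fold lower mean in siOXTR and a log2 difference of -2.16 (SE 0.062). Among the 11550 tested genes it ranked at position 6 counted from the most negative difference, and among 190 tested genes with an SLC symbol it was at position 1. SLC2A14, which encodes GLUT14, lies on the same chromosome as a near copy. In GENCODE 29, 22.7% of the 50-base words in the coding transcripts of SLC2A3 also occur in SLC2A14 transcripts of any type. No source used here says how shared reads were counted. SLC2A14 itself was listed at 0.22, 0.14 and 0.17 FPKM in siOXTR, against 0.45, 0.19 and 0.34 FPKM in siControl. The sum of both genes was 3.69 ± 0.180 FPKM in siOXTR and 19.4 ± 0.606 FPKM in siControl, so the groups were also far apart for the pair as a sum.

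**Figure D2:**
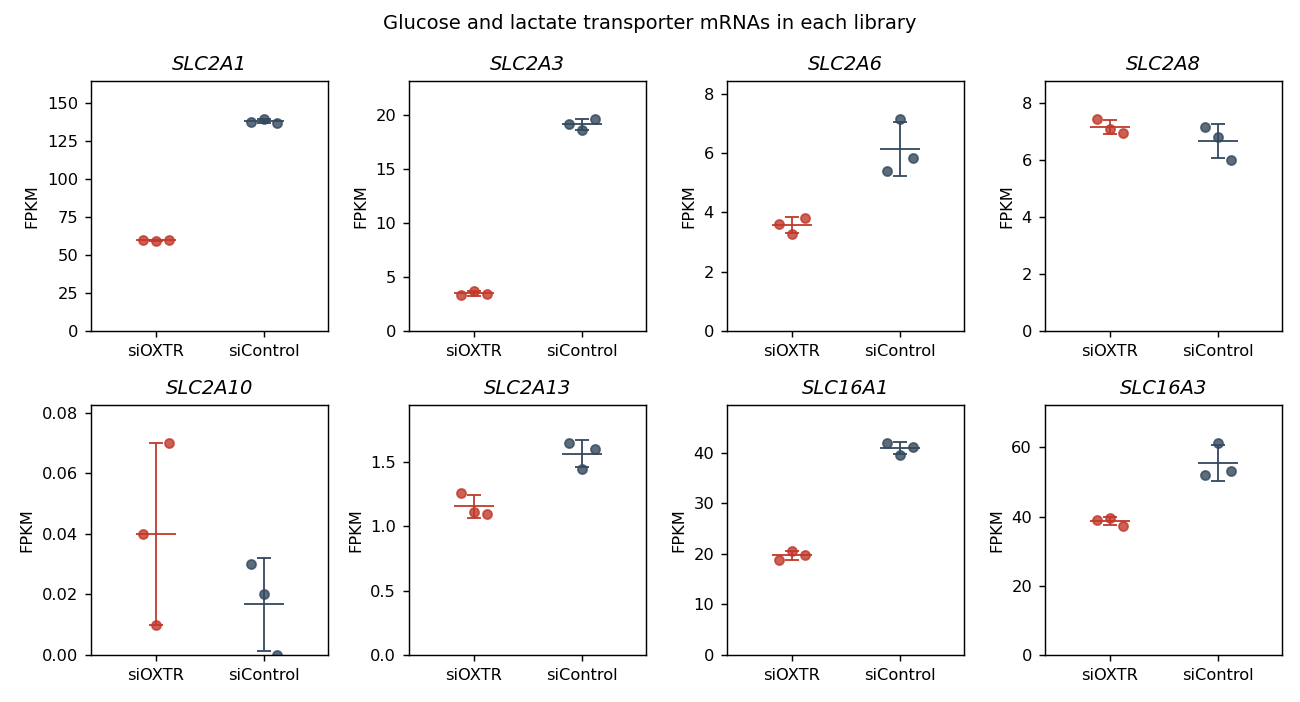
FPKM of the 8 transporter genes in each library, with siOXTR on the left and siControl on the right of each panel. Points are libraries and bars are the mean ± SD of 3. The groups are apart for 6 genes and overlap for SLC2A8 and for SLC2A10, whose axis ends below 0.1 FPKM.

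GLUT6, GLUT8, GLUT10 and the myo-inositol transporter HMIT are the less studied relatives, and the first 2 reside largely on membranes inside the cell. SLC2A6 (GLUT6, chromosome 9, 133471095 to 133479137, minus strand) was at 3.62, 3.27 and 3.80 FPKM in siOXTR, against 5.39, 7.14 and 5.84 FPKM in siControl. The siControl values spread over 28.6% of their mean, the widest spread of any tested transporter gene in either group, yet all of them lay above the siOXTR values. The log2 difference was -0.64 (SE 0.090), and it was -0.54 without siControl replicate 2, the highest library.

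SLC2A8 (GLUT8, chromosome 9, 127397138 to 127408424, plus strand) was the exception among the tested genes. It was at 7.43, 7.10 and 6.95 FPKM in siOXTR, against 7.15, 6.82 and 5.99 FPKM in siControl. The groups overlapped, and the log2 difference of 0.10 (SE 0.071) turned to -0.02 after TMM scaling. A missed threshold does not show that its level was equal in both groups.

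SLC2A13 encodes HMIT, which carries myo-inositol together with protons rather than glucose. It lies on the minus strand of chromosome 12 (39755021 to 40106089) and was at 1.26, 1.11 and 1.10 FPKM in siOXTR, against 1.65, 1.45 and 1.6 FPKM in siControl. The groups did not overlap, but the log2 difference of -0.25 (SE 0.080) was the least of those called. The call was lost without siOXTR replicate 2 (-0.24) and without siOXTR replicate 3 (-0.23). Near 1 FPKM the added 1 shrinks the difference, which was -0.41 with an added 0.1. The gene C12orf40, not analysed here, overlaps the whole span of SLC2A13, introns included, on the opposite strand over 153280 bases. An overlap of exons was not computed.

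SLC2A10 encodes GLUT10, whose loss in humans causes arterial tortuosity syndrome. It lies on chromosome 20 (46709487 to 46736347, plus strand) and was listed at 0.04, 0.01 and 0.07 FPKM in siOXTR, against 0.03, 0.02 and 0 FPKM in siControl. Both groups were close to 0 and overlapped, so no difference was estimated.

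MCT1 carries lactate, pyruvate and ketone bodies with protons in either direction. Its gene SLC16A1, on the minus strand of chromosome 1 (112911847 to 112957013), was at 18.80, 20.54 and 19.81 FPKM in siOXTR, against 41.92, 39.55 and 41.01 FPKM in siControl. The lowest siControl library was well above the highest siOXTR library, with a 2.07-fold lower mean in siOXTR and a log2 difference of -1.01 (SE 0.055).

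MCT4 is the lactate exporter of strongly glycolytic cells. Its gene SLC16A3, on the plus strand of chromosome 17 (82228397 to 82261129), was at 38.95, 39.55 and 37.41 FPKM in siOXTR, against 51.92, 61.30 and 53.12 FPKM in siControl. The groups did not overlap, but siControl replicate 2 stood above the other 2 siControl libraries. The mean was 1.44-fold lower in siOXTR, a log2 difference of -0.51 (SE 0.065), and -0.43 without siControl replicate 2. The whole span of SLC16A3, introns included, overlaps that of CSNK1D, a casein kinase gene on the opposite strand, over 22107 bases in GENCODE 29. How much of this stretch is exon in both genes was not computed. No source names the strand setting of the counting, and without it reads from any overlapping exons cannot be told apart. CSNK1D was at 46.3 ± 0.127 FPKM in siOXTR and 41.3 ± 0.705 FPKM in siControl, a difference in the opposite direction. That gain was called as deposited (log2 difference 0.16, limma adjusted p = 0.0125) and not after TMM scaling (0.04, limma adjusted p = 0.579).

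By level, the order in siOXTR was SLC2A1, SLC16A3, SLC16A1, SLC2A8, SLC2A6, SLC2A3, SLC2A13 and SLC2A10. SLC2A6 and SLC2A3 overlapped there, at means of 3.56 and 3.51 FPKM, and every other pair of neighbours was apart. In siControl the order was SLC2A1, SLC16A3, SLC16A1, SLC2A3, SLC2A8, SLC2A6, SLC2A13 and SLC2A10. SLC2A8 and SLC2A6 overlapped there, at 6.65 and 6.12 FPKM, and every other pair of neighbours was apart. SLC2A3 thus held position 6 of 8 in siOXTR and position 4 in siControl, and the first 3 genes kept their places.

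Ratios within a library do not depend on how that library was scaled, whereas summed FPKM, given here as deposited, does. The FPKM of all 14 SLC2A genes summed to 97.3 ± 1.04 in siOXTR and to 195.7 ± 2.09 in siControl (SD, n = 3 each). SLC2A1 made up 60.9%, 61.6% and 61.7% of that sum in the siOXTR libraries, against 70.3%, 70.7% and 70.8% in the siControl libraries. SLC2A3 made up 3.61 ± 0.264% of the sum in siOXTR and 9.77 ± 0.362% in siControl. SLC2A1 and SLC2A3 together thus took a smaller part of the GLUT transcripts in every siOXTR library. The share of SLC2A8 was 7.35 ± 0.223% in siOXTR and 3.40 ± 0.277% in siControl, and the level of SLC2A8 itself was not called. SLC2A1 exceeded SLC2A3 by 18.0, 15.8 and 17.4 times in the siOXTR libraries, against 7.20, 7.51 and 6.99 times in the siControl libraries.

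Among the MCT genes the balance also differed between groups. The 14 SLC16A genes summed to 81.1 ± 2.31 FPKM in siOXTR and 122.0 ± 3.05 FPKM in siControl. The ratio of SLC16A3 to SLC16A1 was 2.07, 1.93 and 1.89 in the siOXTR libraries, against 1.24, 1.55 and 1.30 in the siControl libraries. The ratios did not overlap, so the MCT4 transcript outweighed the MCT1 transcript by more in each siOXTR library. SLC16A3 made up 47.7 ± 0.536% of the SLC16A sum in siOXTR and 45.4 ± 3.16% in siControl, and these shares overlapped. An exact permutation test of 3 libraries against 3 cannot give a two-sided p below 0.10, and these ratios were not tested because the genes were picked with their differences known.

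**Figure D3:**
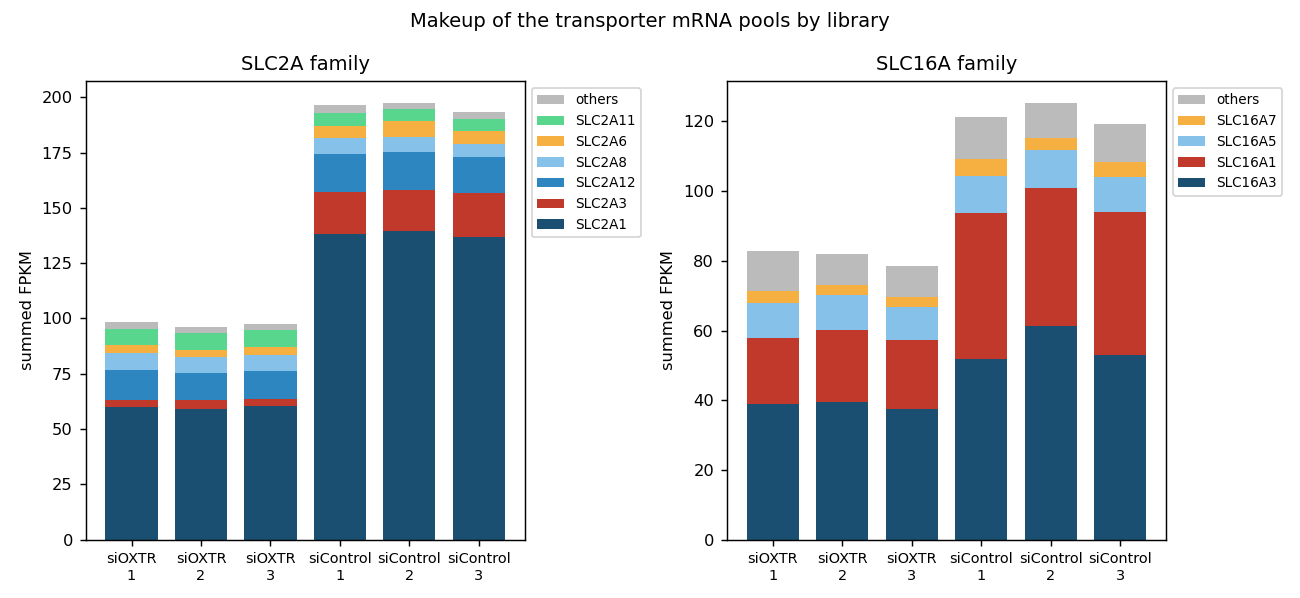
Summed FPKM of the SLC2A genes (left) and of the SLC16A genes (right) in each library, stacked by gene, with siOXTR libraries left of siControl libraries. The SLC2A stack averages 97.3 FPKM in siOXTR and 195.7 FPKM in siControl, with the SLC2A3 layer thin in siOXTR.

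The start regions of the genes were read from RefSeq windows of 300 bases, most of them upstream of an annotated start site (GRCh38.p14), which were matched by symbol for 6 of the 8 genes, with 5 windows for SLC16A3. Windows of SLC2A3 and SLC16A1 were not used here. Both strands were searched for the core that hypoxia-inducible factors bind, read as ACGTG or GCGTG. The E-box of MYC and ChREBP, read as CACGTG, contains the first of these. The core that TEAD factors bind, the DNA-binding partners of YAP, was read as GGAATG. The GC box of SP1 was read as GGGCGG. The windows of 3 genes are shown to set a gene with a large difference (SLC2A1), a gene with 2 separate ACGTG matches (SLC16A3) and the gene that was not called (SLC2A8) side by side, chosen after their values and matches were seen. Capitals mark ACGTG and GCGTG on either strand, and each sequence reads 5′ to 3′ on the strand of its gene, at chr1:42958819-42959118 (minus strand), chr17:82228792-82229091 (plus strand) and chr9:127396919-127397218 (plus strand).
SLC2A1: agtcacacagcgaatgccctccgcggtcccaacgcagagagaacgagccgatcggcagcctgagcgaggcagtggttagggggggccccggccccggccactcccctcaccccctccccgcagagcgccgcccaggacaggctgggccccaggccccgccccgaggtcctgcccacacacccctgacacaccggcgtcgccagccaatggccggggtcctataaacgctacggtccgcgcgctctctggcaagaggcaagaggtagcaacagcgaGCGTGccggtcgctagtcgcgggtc
SLC16A3: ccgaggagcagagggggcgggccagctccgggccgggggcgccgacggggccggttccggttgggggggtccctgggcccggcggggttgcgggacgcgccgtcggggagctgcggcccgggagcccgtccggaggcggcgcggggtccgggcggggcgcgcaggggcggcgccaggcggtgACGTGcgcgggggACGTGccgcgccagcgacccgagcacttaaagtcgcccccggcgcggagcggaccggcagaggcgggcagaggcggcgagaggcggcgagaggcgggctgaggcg
SLC2A8: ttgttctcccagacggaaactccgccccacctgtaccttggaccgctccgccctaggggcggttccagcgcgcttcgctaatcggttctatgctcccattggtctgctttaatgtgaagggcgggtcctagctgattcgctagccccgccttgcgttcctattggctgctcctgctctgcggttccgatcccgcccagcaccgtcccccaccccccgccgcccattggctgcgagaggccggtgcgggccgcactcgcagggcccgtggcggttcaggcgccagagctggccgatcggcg

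The SLC16A3 window held ACGTG at positions -68 and -55, counted with the start site as 0, both on the gene's strand, and a GC box at -236, -101 and -86. The SLC2A1 window held GCGTG at position 25 and GC boxes at -123 and -95. The SLC2A8 window held 6 GC boxes and neither ACGTG nor GCGTG, which says only that those letters are not in these 300 bases. ACGTG or GCGTG occurred in 7 of the 10 windows of the transporter genes, against 48.4% of 35116 windows of all genes. GGGCGG was in 8 of the 10, against 45.0%. Of these 10 windows 5 belong to SLC16A3 alone, so they are not independent. The 10 windows hold 64.0% to 82.7% G and C, and the GC content of all windows was not compared. No enrichment is therefore read from these counts. SLC2A13, the gene with the least called difference, held the only CACGTG, a motif found in 7.3% of all windows. GGAATG was in none of the 10 windows, against 14.0% of all windows. A match is a description of the letters and not a bound site, and SLC2A10, at nearly 0 FPKM, held an ACGTG too.

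Outside the 8 genes, 2 further GLUT genes passed the filter, and they differed in opposite directions. SLC2A12, which encodes GLUT12, fell to 13.77, 12.50 and 12.66 FPKM in siOXTR, against 17.31, 17.12 and 16.22 FPKM in siControl (log2 difference -0.36, SE 0.060, limma adjusted p = 0.000348). SLC2A11, which encodes GLUT11, rose to 7.40 ± 0.311 FPKM in siOXTR, against 5.58 ± 0.358 FPKM in siControl (log2 difference 0.35, SE 0.067, limma adjusted p = 0.000775), and was also higher after TMM scaling (0.24). SLC2A12 was thus a larger part of the GLUT transcripts in siOXTR (13.3 ± 0.598%) than in siControl (8.63 ± 0.219%) although its own level was lower. SLC2A2, SLC2A4, SLC2A5, SLC2A7 and SLC2A9 were under 1 FPKM in every library. Among them SLC2A5, the fructose transporter GLUT5, was listed at 0.84, 0.99 and 0.74 FPKM in siOXTR, against 0.58, 0.59 and 0.65 FPKM in siControl.

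Of 7 further SLC16A genes that passed the filter 3 fell and 1 rose, with a median log2 difference of -0.11. The shares over all tested genes were 17.6% lower and 42.2% higher. SLC16A9 fell to 0.907 ± 0.0681 FPKM in siOXTR, against 1.94 ± 0.226 FPKM in siControl (limma adjusted p = 7.67e-05), and SLC16A13 to 1.85 ± 0.193 FPKM in siOXTR, against 2.78 ± 0.469 FPKM in siControl (limma adjusted p = 0.00383). SLC16A7, which encodes the high-affinity pyruvate and lactate transporter MCT2, fell by 0.35 on the log2 scale (limma adjusted p = 0.012). Its groups overlapped, at 3.38, 2.80 and 2.85 FPKM in siOXTR, against 4.71, 3.30 and 4.37 FPKM in siControl. The SLC16A7 call was lost without siControl replicate 1 (limma adjusted p = 0.0633). SLC16A8, which encodes MCT3 of the retinal pigment epithelium, was at 3.51, 1.95 and 2.01 FPKM in siOXTR, against 1.97, 1.16 and 1.24 FPKM in siControl. It was called higher (log2 difference 0.49, limma adjusted p = 0.0384) with overlapping groups, and this call was lost after TMM scaling (limma adjusted p = 0.086). The SLC16A8 call was also lost without siControl replicate 2, without siControl replicate 3 and without siOXTR replicate 1 (limma adjusted p = 0.113, 0.103 and 0.0688). SLC16A4, SLC16A5 and SLC16A14 had log2 differences of -0.09, -0.06 and -0.11 and did not pass, and SLC16A5 passed after TMM scaling (-0.18, limma adjusted p = 0.0348).

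**Figure D4:**
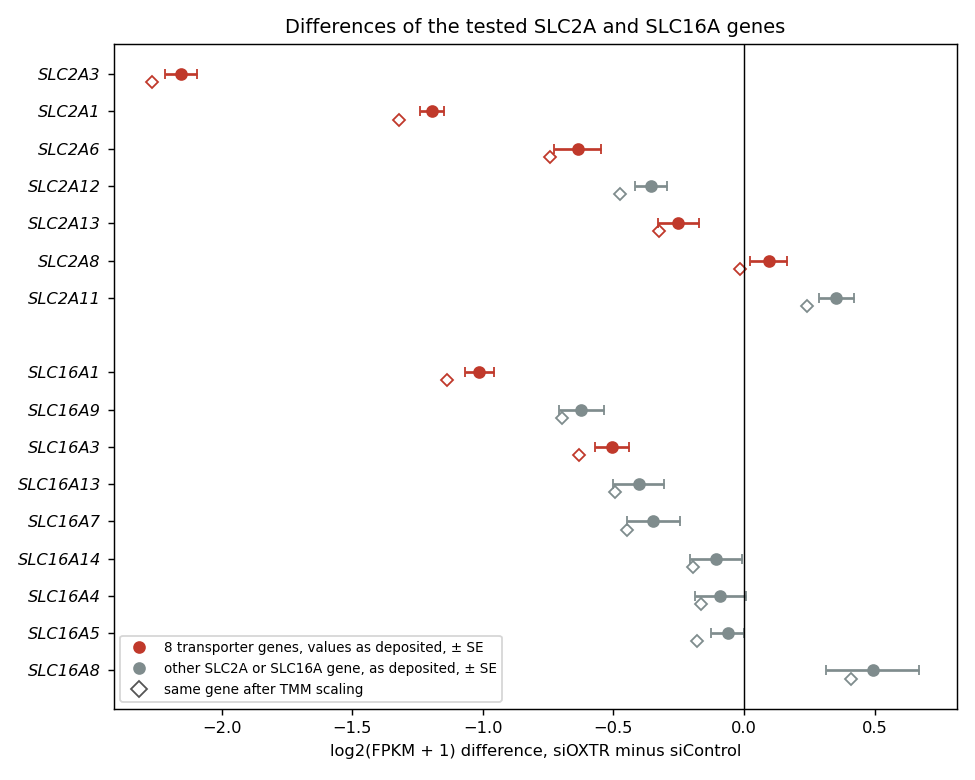
Log2(FPKM + 1) differences, siOXTR minus siControl, of the 7 tested SLC2A genes (top) and 9 tested SLC16A genes (bottom). Filled circles are values as deposited with their SE, red for the followed transporter genes and grey for other family members, and open diamonds are values after TMM scaling, which lie to the left throughout. SLC2A8 sits next to 0 on both scales, and SLC2A11 and SLC16A8 lie to the right of 0.

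All 3 genes for the partner proteins of MCTs fell, where 17.6% of all tested genes were called lower. BSG (basigin), the partner of MCT1 and MCT4, was at 146.57, 148.81 and 162.56 FPKM in siOXTR, against 263.66, 286.76 and 277.03 FPKM in siControl (log2 difference -0.85, SE 0.058, limma adjusted p = 1.54e-07). NPTN (neuroplastin), a close relative of basigin, had a log2 difference of -0.95 (SE 0.062, limma adjusted p = 9.78e-08), and EMB (embigin), the preferred partner of MCT2, of -0.67 (SE 0.073, limma adjusted p = 9.76e-06). The ratio of BSG to the sum of SLC16A1 and SLC16A3 was 2.54, 2.48 and 2.84 in the siOXTR libraries, against 2.81, 2.84 and 2.94 in the siControl libraries. These ratios overlapped between the groups.

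Other sugar carriers were lower where they passed as deposited. Of 8 tested genes on that list 5 fell and none rose, with a median log2 difference of -0.38. Over all tested genes 17.6% were lower and 42.2% higher. Among tested SLC genes outside the 8 and outside the SLC25 family, a set that includes this list, 70.8% were lower. SLC45A3 fell by 0.70, SLC37A3 by 0.53, SLC5A3 by 0.52 and SLC45A4 by 0.47 on the log2 scale. SLC5A3 encodes a sodium-coupled myo-inositol transporter and SLC37A3 a protein of the sugar-phosphate exchanger family. SLC50A1, the human SWEET sugar transporter gene, was at 68.9 ± 1.40 FPKM in siOXTR and 63.7 ± 3.18 FPKM in siControl. It did not pass as deposited (limma adjusted p = 0.0886), but passed when siControl replicate 3 was left out (limma adjusted p = 0.0316). After TMM scaling its log2 difference was -0.015 (limma adjusted p = 0.848). The sodium-glucose cotransporter genes SLC5A1 and SLC5A2 were under 0.3 FPKM in every library. MPC1 and MPC2, which form the mitochondrial pyruvate carrier, rose by 0.26 and 0.25 on the log2 scale (limma adjusted p = 0.00957 and 0.0103), but not after TMM scaling (0.14 and 0.12, limma adjusted p = 0.166 and 0.174). The MPC1 call was also lost without siOXTR replicate 2 (limma adjusted p = 0.0536).

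Hexokinases and ADPGK phosphorylate glucose after uptake, and glucose-6-phosphatases reverse that step. All 4 tested genes of this list fell, where 17.6% of all tested genes were called lower. Their median log2 difference was -0.48. HK2, the hexokinase induced in many tumours, was at 20.4 ± 0.632 FPKM in siOXTR and 32.2 ± 1.42 FPKM in siControl (log2 difference -0.63, SE 0.056, limma adjusted p = 1.53e-06). ADPGK, an ADP-dependent glucokinase, fell by 0.71, the glucose-6-phosphatase gene G6PC3 by 0.32 and HK1 by 0.17. The HK1 call was lost without siControl replicate 1, siControl replicate 2 or siOXTR replicate 2 (limma adjusted p between 0.0574 and 0.0964). The level of SLC2A1 exceeded that of HK2 by 2.87, 3.01 and 2.90 times in the siOXTR libraries, against 4.08, 4.48 and 4.32 times in the siControl libraries, without overlap.

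Of 13 glycolytic enzyme genes 5 fell and 2 rose as deposited, and 7 fell and none rose after TMM scaling. The median log2 difference was -0.05 as deposited. ALDOC fell to 12.5 ± 0.831 FPKM in siOXTR, against 25.5 ± 3.20 FPKM in siControl, and log2 differences of -0.26, -0.25 and -0.23 were found for PGK1, ENO2 and GPI, all called. The most abundant of these genes, GAPDH, was at 2311 ± 33.7 FPKM in siOXTR and 2071 ± 6.31 FPKM in siControl, a rise as deposited (log2 difference 0.16) that was not called after TMM scaling (0.03). The GAPDH call was also lost without siControl replicate 2, siOXTR replicate 2 or siOXTR replicate 3 (limma adjusted p = 0.0538, 0.077 and 0.0885). LDHA, which makes lactate from pyruvate, fell to 800.4 ± 41.2 FPKM in siOXTR, against 1010 ± 19.4 FPKM in siControl (log2 difference -0.34, SE 0.057, limma adjusted p = 0.000389). Of the 9 tested lactate and pyruvate enzyme genes 3 fell and 5 rose, or 3 and 2 after TMM scaling. Over all tested genes 17.6% were lower and 42.2% higher as deposited, and 24.5% lower and 19.1% higher after TMM scaling. PDK1, a kinase that inhibits pyruvate dehydrogenase and is induced by hypoxia, fell by 0.74, whereas PDK4, its fasting-induced relative, and the pyruvate dehydrogenase subunit gene PDHB rose by 0.57 and 0.48 on the log2 scale.

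**Figure D5:**
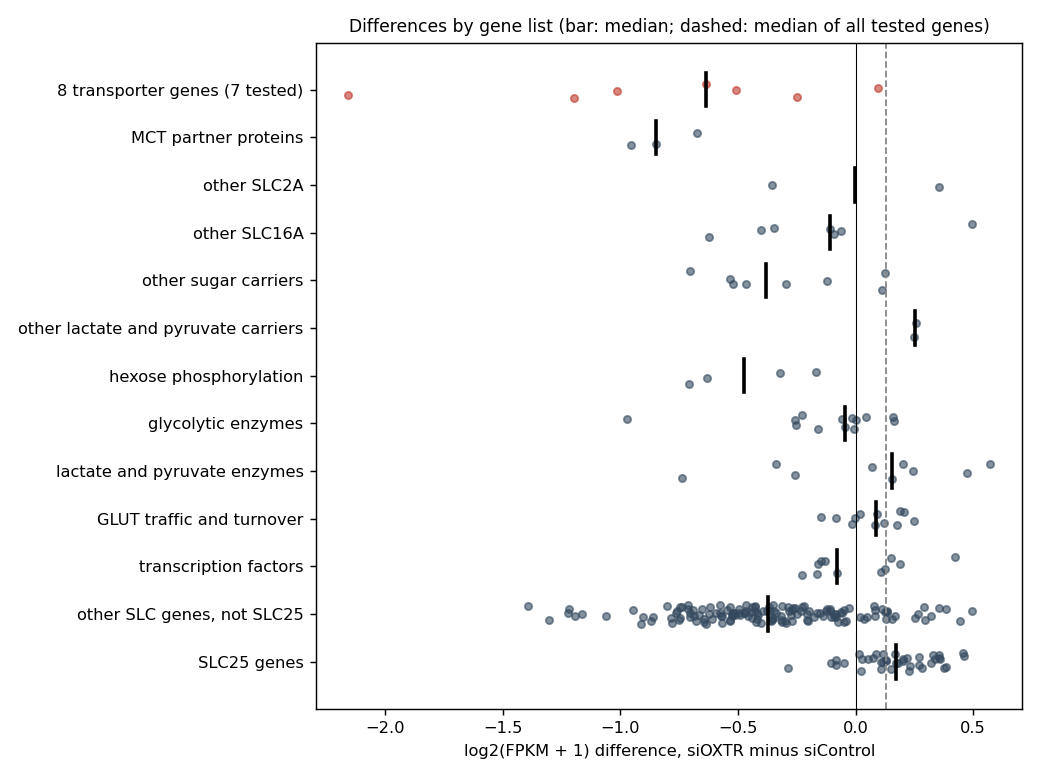
Log2(FPKM + 1) differences, siOXTR minus siControl, of the tested genes of each list, with 1 point per gene, the list's median as a black bar and the median of all tested genes (0.13) as a dashed line. The transporter genes in red reach from -2.16 to 0.10, the other SLC genes centre on -0.37 and the mitochondrial SLC25 genes on 0.17.

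Genes with an SLC symbol, which mark solute carriers, were used to place the 8. Of 144 tested SLC genes outside the 8 and outside the SLC25 family 102 fell and 9 rose (median log2 difference -0.37), or 113 and 4 after TMM scaling, with 17.6% of all tested genes lower as deposited. The largest of these differences were those of SLC29A1, a nucleoside transporter gene (2.89-fold lower in siOXTR), the phosphate transporter gene SLC20A2 (2.54-fold lower), SLC38A10 (2.40-fold lower) and SLC44A2 (2.35-fold lower). Of 39 tested SLC25 genes, whose products carry metabolites across the inner mitochondrial membrane, 1 fell and 19 rose, or 3 and 8 after TMM scaling (median 0.17 as deposited). Of all tested genes 42.2% were higher as deposited and 19.1% after TMM scaling, so the share of SLC25 genes that rose was near that of all genes on both scales. Their largest differences were the rises of SLC25A13, SLC25A6, SLC25A20 and SLC25A3, between 1.30-fold and 1.39-fold. Counted from the most negative difference among the 190 tested SLC genes, SLC2A3 was at position 1, SLC2A1 at 6, SLC16A1 at 10, SLC2A6 at 36, SLC16A3 at 56, SLC2A13 at 101 and SLC2A8 at 146. The fall of most solute carrier genes was thus shared by genes that carry neither sugar nor lactate, and no test of the positions was made.

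The genes whose profile over the 6 libraries lay nearest to that of SLC2A1 and of SLC2A3 were found by the Euclidean distance between centred log2(FPKM + 1) values, among 9024 genes averaging 5 FPKM or more. For SLC2A1 they included P3H2 (distance 0.054), TGFBI (0.068) and GPRC5A (0.072). P3H2, a collagen prolyl hydroxylase gene, was at 2.91, 2.96 and 2.89 FPKM in siOXTR, against 7.98, 8.27 and 8.15 FPKM in siControl. For SLC2A3 they were ECE1 (0.212), ADAM9 (0.255), THBS1 (0.270), CTSC (0.272) and C3 (0.290). With 6 libraries in 2 groups, such distances mostly rank genes by the size of the difference between the groups.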

How the data were processed

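Per the file headers, the deposited values are FPKM, made by the authors, given to 2 decimals for each gene in each library. Per the submitters' processing notes the genome build was GRCh38.p13. Libraries followed a BGISEQ-500 protocol on Trizol RNA, per the labels' protocols. No aligner, counter, annotation or strand setting is named in the sources used here. FPKM is relative to a library total, so a fall in abundant genes raises others. Depth was searched for in the steps of low values, with the median GENCODE 29 transcript length per gene, and the coherence reached only 0.0472 to 0.0557 of a possible 1, so depth is unknown. FPKM summed to 446246 to 459595 per siOXTR library and 417829 to 434167 per siControl library.

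From these values, genes that averaged 1 FPKM or more were fitted with limma 3.58.1 (R 4.3.3) on log2(FPKM + 1), with group as the only term, a variance trend and a robust prior, two-sided, with Benjamini-Hochberg adjustment over 11550 genes and a threshold of 0.05. Differences on this scale understate changes of low genes, and folds are ratios of mean FPKM. TMM scaling was computed without weights, trimming 30% of ratios and 5% of means at each end. Other alternatives were a pseudocount of 0.1, no filter, a replicate block and leaving out each library. The transporter genes and the gene lists were chosen with earlier results of these data known. Of the lists, every tested SLC2A and SLC16A gene and MCT partner is named, from each other list up to 4 called genes with the largest difference, and HIF1A, MYC, TXNIP, HK2 and LDHA. The 5 nearest patterns to SLC2A1 and to SLC2A3 were chosen by distance, and some of those for SLC2A1 are not reported here. CDH1, KRT8, CSNK1D, SLC2A5, SLC5A1, SLC5A2, SLC50A1, GAPDH and ISYNA1 were named after their values were seen. Figures were drawn with matplotlib 3.10.9.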

Additional observations from a re-analysis of the deposited data

How the results depend on the processing

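The number of the 7 tested transporter genes called lower was 6 as deposited, after TMM scaling, with a pseudocount of 0.1, without the filter and with a replicate block, and 5 to 6 when 1 library was left out. None was called higher under any of these. Over all tested genes 4869 were higher and 2036 lower as deposited, and 2210 and 2829 after TMM scaling, and 3980 to 4671 and 1820 to 2028 when 1 library was left out. Of the 74 tested genes of the fixed lists 19 were higher and 27 lower as deposited, and 5 and 36 after TMM scaling. When 1 library was left out 12 to 18 of them were higher and 23 to 28 lower, and the value of 12 came without siOXTR replicate 3. The cause of these changes was not tested. The ratio of SLC16A3 to SLC16A1 was 1.44 times as high in siOXTR as in siControl, and 1.38 to 1.55 times with 1 library left out. The ratio of SLC2A1 to SLC2A3 was 2.36 times as high, with a range of 2.29 to 2.45, and the share of SLC2A1 in the SLC2A sum 0.870 times, with a range of 0.868 to 0.873. Whether the replicate numbers pair the libraries is not known. Deviations from the group mean correlated at 0.107, 0.0042 and 0.160 between same-numbered libraries. The highest correlation of siOXTR replicate 1 was with siControl replicate 2 (0.208). For siOXTR replicates 2 and 3 it was with siControl replicate 3 (0.184 and 0.160). Deviations of 3 libraries sum to 0 within a group, so these correlations cannot decide it. With the replicate block 5100 genes were higher and 2105 lower, and no call among the transporter genes changed. Unknown depth limits SLC2A10 and SLC2A13, which lie near the rounding step or near 1 FPKM.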

Other observations

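Of 11 tested transcription factor genes 3 were lower and 2 higher as deposited, and 6 lower and 1 higher after TMM scaling. The shares over all tested genes were 17.6% lower and 42.2% higher as deposited, and 24.5% lower and 19.1% higher after TMM scaling. The median log2 difference of the 11 was -0.08 as deposited. HIF1A, the oxygen-regulated subunit, was at 45.62, 42.21 and 44.94 FPKM in siOXTR, against 46.21, 45.93 and 48.37 FPKM in siControl, and did not pass as deposited (log2 difference -0.08, limma adjusted p = 0.206), but did after TMM scaling (-0.21, limma adjusted p = 0.0083). MYC was at 29.8 ± 0.878 FPKM in siOXTR and 33.5 ± 2.56 FPKM in siControl with overlapping groups (log2 difference -0.16, limma adjusted p = 0.0448), and that call was lost when any library other than siControl replicate 1 was left out (limma adjusted p between 0.0595 and 0.143) or the filter was dropped (limma adjusted p = 0.0813). MLX, the partner of the glucose-sensing factors of the ChREBP family, rose by 0.42 on the log2 scale (limma adjusted p = 3.23e-05), and also after TMM scaling (0.30). YAP1, the coactivator of TEAD factors, fell to 68.4 ± 0.498 FPKM in siOXTR, against 80.4 ± 3.79 FPKM in siControl (limma adjusted p = 0.00271). ARNT, the partner of HIF1A, was higher by 0.19 as deposited (limma adjusted p = 0.018), a call lost after TMM scaling (limma adjusted p = 0.360), without siControl replicate 1 (limma adjusted p = 0.0506) and without siOXTR replicate 3 (limma adjusted p = 0.0897). TEAD1 had a log2 difference of -0.16 (limma adjusted p = 0.0487), a call lost without siControl replicate 1, siOXTR replicate 2 or siOXTR replicate 3 (limma adjusted p between 0.126 and 0.189) and without the filter (limma adjusted p = 0.0951).

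Of 12 genes for GLUT traffic and turnover 4 were higher and none lower as deposited, and none higher and 2 lower after TMM scaling. Of all tested genes 42.2% were higher as deposited and 24.5% lower after TMM scaling, both larger shares than in this list. TXNIP, an arrestin-like protein that promotes the removal of GLUT1 from the surface, was at 283.80, 282.65 and 282.69 FPKM in siOXTR, against 253.04, 263.70 and 263.58 FPKM in siControl. It did not pass as deposited (log2 difference 0.12, limma adjusted p = 0.0513), and its difference was -0.01 after TMM scaling (limma adjusted p = 0.933). It passed with the replicate block (limma adjusted p = 0.0382) and without the filter (limma adjusted p = 0.0466). The called genes GIPC1, RAB10, TBC1D5 and VPS35 were higher by 0.25, 0.21, 0.19 and 0.18 as deposited, and were not called after TMM scaling (0.12, 0.08, 0.07 and 0.05). The GIPC1 groups overlapped, and the calls of GIPC1 and TBC1D5 were each lost without the filter (limma adjusted p = 0.0657 and 0.0627) and in several fits that left out 1 library.

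Among genes of inositol handling, which neighbour the HMIT transporter in function, IMPA1, an inositol monophosphatase gene, rose to 8.68 ± 0.303 FPKM in siOXTR, against 5.86 ± 0.517 FPKM in siControl (limma adjusted p = 8.8e-05). The myo-inositol carrier gene SLC5A3 fell to 4.52 ± 0.171 FPKM in siOXTR, against 6.95 ± 0.938 FPKM in siControl (limma adjusted p = 0.000245). IMPA2 was higher by 0.14 as deposited (limma adjusted p = 0.0403), a call lost after TMM scaling (0.02) and without any of siControl replicate 3, siOXTR replicate 1, siOXTR replicate 2 and siOXTR replicate 3 (limma adjusted p between 0.0682 and 0.133). ISYNA1, the gene for inositol synthesis, had a log2 difference of 0.10 and did not pass (limma adjusted p = 0.241). Of the 4 tested genes of that list 2 were higher and 1 lower as deposited. Over all tested genes 42.2% were higher and 17.6% lower.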
